A study of Mus musculus with 4 samples.

Results

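The 10 genes described here are 7 genes of the Hoxa cluster (Hoxa3, Hoxa5, Hoxa6, Hoxa7, Hoxa9, Hoxa10 and Hoxa11) together with Meis1, Pbx3 and Mecom. They were chosen by name as homeobox and partner genes that MLL fusion proteins act on, and all 10 were found by NCBI gene number among the 27179 genes of the deposited table. The RNA came from leukemia-initiating cells (LICs) of a murine acute myeloid leukemia, sorted by flow cytometry as Mac-1+/c-Kit+ bone marrow cells and called LSC in the sample labels. The paper states that LICs were sequenced, but its sequencing methods name tissue as the source and its methods give the sort under RT-PCR. There were 4 libraries, 2 labelled WT and 2 labelled CD274-null, from C57BL/6 mice aged 6 weeks in both groups. The CD274-null leukemia arose from cells of knockout mice on the same strain, and CD274 (PD-L1) is a cell surface ligand of the receptor PD-1. Both groups carried the MLL-AF9 fusion oncogene, delivered by a retrovirus to lineage-negative fetal liver cells that were then transplanted into irradiated C57BL/6 recipients, which keep some blood cells of their own. The sources do not say from which round of transplantation the cells came, or how many mice stand behind a library, so the p-values below measure only the spread between these libraries, which may be technical.

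Hox genes encode homeodomain transcription factors, lie in 4 clusters in mammals and are expressed along the body axis in the order in which they lie on the chromosome. In blood formation the Hoxa genes and Meis1 are active in stem and progenitor cells and fall silent as cells mature. MLL (Kmt2a) is a histone methyltransferase that keeps these genes on, and its fusion proteins keep them on in leukemia. HOXA9 binds DNA together with MEIS1 and PBX proteins, which belong to the TALE class of homeodomain proteins, and Mecom encodes the zinc finger factor EVI1, which marks some MLL-rearranged leukemias.

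The values are FPKM, in which fragments are corrected for gene length and library depth, so that levels can be set side by side between genes. They rest on 8843737 to 11568565 reads per library, as implied by the values themselves, which need not be all the reads that mapped. The reads given below were recovered as whole numbers from the FPKM values. Group names below are those of the labels. Cd274, the deleted gene, had an FPKM of 2.80 and 0.945 in the libraries labelled WT and of 1.43 and 2.29 in those labelled CD274-null, so its level did not separate the labels. A value per gene does not show which exons were read, and the direction of every difference below rests on the labels alone. Of the sort markers, Itgam (Mac-1) ranged from 100.2 to 174 FPKM and Kit (c-Kit) was 6.59 FPKM in WT replicate 1 and 16.2 to 19.5 FPKM in the other 3 libraries. Differences between groups were tested with limma on log2(FPKM + 0.5) over 13230 genes (mean FPKM 0.5 or more), a scale that understates the change of low genes. Genes are called candidates where limma gave p below 0.01, unadjusted, with a difference above 1.5-fold, as these were the thresholds of the study. In bulk RNA a smaller share of cells of a type and less RNA per cell cannot be told apart.

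Of Hoxa9 and Meis1, the core pair of the MLL-AF9 program, Hoxa9 was at nearly the same level in all 4 libraries, and Meis1 was highest in CD274-null replicate 1. Hoxa9 (NCBI gene 15405, chr6:52223097-52227370 of GRCm38.p6) had an FPKM of 75.8 and 74.3 in the libraries labelled WT and of 71.3 and 72.9 in those labelled CD274-null, from 1432 to 1991 reads. The CD274-null values both lay just below the WT values. Its mean was 75.0 ± 1.02 (SD, n = 2) in WT and 72.1 ± 1.18 (SD, n = 2) in CD274-null, which placed it between the 92.3 and the 93.0 percentile of the genes above 0 in each library. The log2 fold change was -0.06 with a standard error of 0.19 (adjusted p = 0.919, limma with Benjamini-Hochberg adjustment). Its 95% interval ran from -0.53 to 0.41 on the log2 scale, so a change within that range was not excluded by this test. The standard error behind that interval is largely borrowed from other genes. Meis1 (NCBI gene 17268, chr11:18880428-19019651), the cofactor that stabilizes HOXA9 on DNA, had an FPKM of 35.6 and 36.3 in WT and of 44.6 and 37.9 in CD274-null. Both CD274-null values lay above the WT values, by less in replicate 2 than the CD274-null replicates differed from each other. The log2 fold change of Meis1 was 0.19 with a standard error of 0.21 (adjusted p = 0.711, limma) and a 95% interval from -0.31 to 0.69. The ratio of Hoxa9 to Meis1 FPKM was 2.13 and 2.05 in WT against 1.60 and 1.92 in CD274-null.

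**Figure D1:**
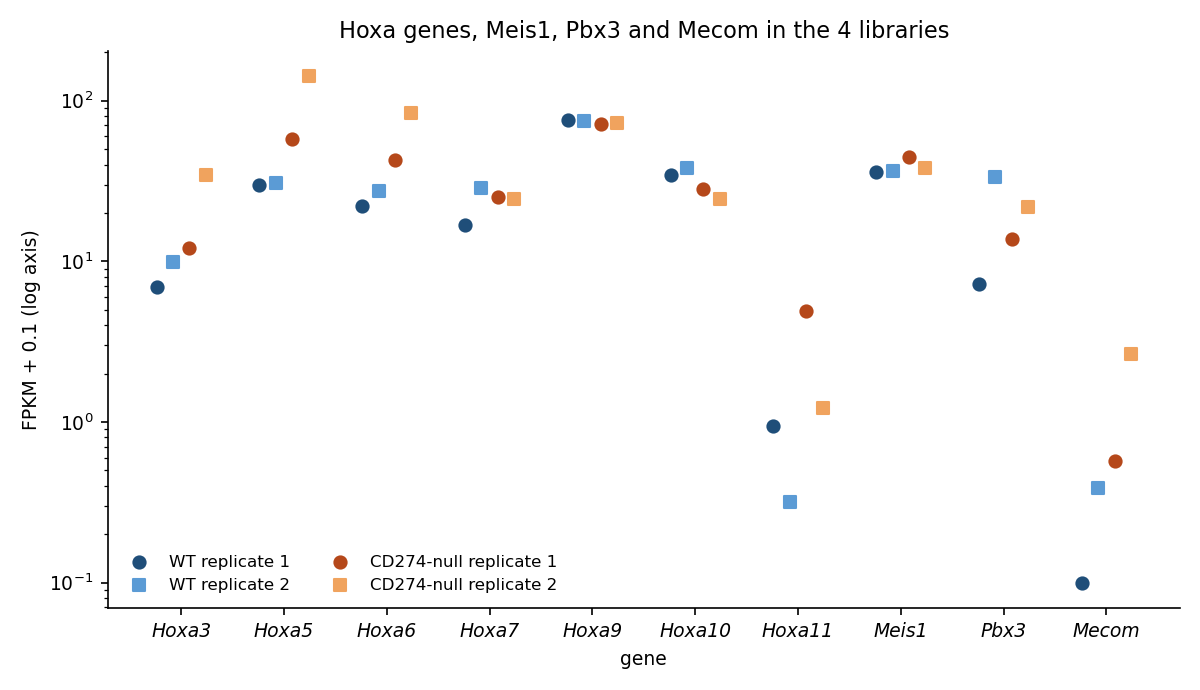
FPKM plus 0.1 on a log axis (vertical) of each of the 10 genes (horizontal) in the 4 libraries, 1 point per library. The 4 points of Hoxa9 lie between 71.3 and 75.8 FPKM, while the orange square of CD274-null replicate 2 is the highest point for Hoxa3, Hoxa5, Hoxa6 and Mecom.

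The genes from Hoxa2 to Hoxa6 were higher in both libraries labelled CD274-null, and by most in CD274-null replicate 2. Hoxa5 (NCBI gene 15402, chr6:52201754-52204587), a regulator of myeloid against erythroid fate in progenitors, had an FPKM of 29.5 and 30.4 in WT and of 57.7 and 142 in CD274-null. The groups did not overlap, and the CD274-null replicates stood farther apart than the WT replicates. The mean of Hoxa5 was 30.0 ± 0.623 (SD, n = 2) in WT and 99.8 ± 59.6 (SD, n = 2) in CD274-null. From 957 and 2654 reads, CD274-null replicate 2 held 2.46 times the Hoxa5 level of replicate 1 (95% exact binomial interval 2.29 to 2.65, counting error only), whereas the WT replicates had a ratio of 1.03 (0.919 to 1.15). Its log2 fold change was 1.58 with a standard error of 0.41 (unadjusted p = 0.00823, adjusted p = 0.274, limma). Hoxa5 was the 1 candidate among the 10 genes, beside a background of 3.63% of all genes tested (2.39% higher and 1.24% lower in CD274-null), and 0 of the 10 had an adjusted p under 0.05 in limma, against 0.0756% of all genes, and 0 had one with limma's voom on the recovered reads. At an unadjusted p under 0.05 there were 3 of the 10 (Hoxa3, Hoxa5 and Hoxa6), against 13.7% of all genes. The candidate call of Hoxa5 was lost in 6 of the 12 other settings and on leaving out WT replicate 1, WT replicate 2 or CD274-null replicate 2, and without CD274-null replicate 2 its log2 fold change was 0.93.

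Hoxa6 (NCBI gene 15403, chr6:52204858-52208672), which lies next to Hoxa5 and is less studied in blood, followed the same order of libraries. Its FPKM was 22.01 and 27.4 in WT against 42.7 and 84.2 in CD274-null. The lower CD274-null value lay above the higher WT value. This gave a log2 fold change of 1.27 with a standard error of 0.35 (unadjusted p = 0.0102, adjusted p = 0.276, limma), just short of the candidate thresholds. Without CD274-null replicate 2 the log2 fold change of Hoxa6 was 0.79, and without CD274-null replicate 1 it was 1.76 and past the thresholds. Hoxa3 (NCBI gene 15400, chr6:52169059-52213067), known for its part in thymus and parathyroid development, had an FPKM of 6.83 and 9.81 in WT and of 12.01 and 34.3 in CD274-null. CD274-null replicate 1 lay only a little above WT replicate 2, and CD274-null replicate 2 stood apart with 869 reads against 201 to 270 in the others. For Hoxa3 the log2 fold change was 1.26 with a standard error of 0.50 (unadjusted p = 0.0426, adjusted p = 0.350, limma). It was 0.52 without CD274-null replicate 2 and 2.0, past the thresholds, without CD274-null replicate 1. The annotated exons of Hoxa3 share bases with other transcripts of the cluster, among them Gm28308 on the same strand over 8.01% of them, and the kit does not keep strand, so part of its reads could belong to those transcripts.

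Hoxa2 and Hoxa4 were also highest in CD274-null replicate 2. Both genes pattern the hindbrain and neighbouring tissues in the embryo. Hoxa4 had an FPKM of 2.21 and 2.25 in WT and of 7.25 and 20.5 in CD274-null and a log2 difference of 2.23 (SE 0.49, adjusted p = 0.251, limma), and it was a candidate. Hoxa2 had an FPKM of 3.91 and 1.40 in WT and of 7.87 and 34.8 in CD274-null and a log2 difference of 2.57 (SE 0.73, adjusted p = 0.284, limma), and missed the thresholds. In both genes the lower CD274-null value lay above the higher WT value. Hoxa4 lost its call without WT replicate 2 or CD274-null replicate 2 and in 2 of the other settings. Hoxa2 passed the thresholds without WT replicate 1 or CD274-null replicate 1. Without CD274-null replicate 2 the log2 fold change was 1.53 for Hoxa2 and 1.51 for Hoxa4. Hoxa13 was listed at 0 in all 4 libraries.

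The sequences just before the start sites of Hoxa5 and Hoxa6, which were higher in CD274-null, and of Hoxa9 and Hoxa10, which were not, are shown as examples that differ in CpG content, which was seen before they were chosen. CpG dinucleotides are in capitals, and each run is written 5' to 3' on the minus strand from the RefSeq promoters of GRCm38.p6. The windows are chr6:52204588-52204837 for Hoxa5, chr6:52208723-52208922 for Hoxa6 (200 bases, the stretch outside annotated exons), chr6:52227371-52227620 for Hoxa9 and chr6:52240855-52241104 for the upstream start of Hoxa10.
Hoxa5: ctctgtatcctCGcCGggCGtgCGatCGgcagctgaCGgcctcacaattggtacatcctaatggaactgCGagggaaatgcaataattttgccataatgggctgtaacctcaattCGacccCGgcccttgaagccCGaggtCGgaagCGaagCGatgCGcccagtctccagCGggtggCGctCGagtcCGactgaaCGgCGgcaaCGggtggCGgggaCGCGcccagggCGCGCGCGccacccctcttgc
Hoxa6: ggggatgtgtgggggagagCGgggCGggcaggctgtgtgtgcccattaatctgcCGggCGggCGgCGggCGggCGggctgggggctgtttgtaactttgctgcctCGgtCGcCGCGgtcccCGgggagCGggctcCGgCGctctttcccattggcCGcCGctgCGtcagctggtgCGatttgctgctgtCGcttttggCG
Hoxa9: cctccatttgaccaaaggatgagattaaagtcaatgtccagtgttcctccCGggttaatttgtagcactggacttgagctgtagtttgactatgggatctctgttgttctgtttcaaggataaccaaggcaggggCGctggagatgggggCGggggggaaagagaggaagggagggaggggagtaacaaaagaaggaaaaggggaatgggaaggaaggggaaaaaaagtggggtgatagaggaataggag
Hoxa10: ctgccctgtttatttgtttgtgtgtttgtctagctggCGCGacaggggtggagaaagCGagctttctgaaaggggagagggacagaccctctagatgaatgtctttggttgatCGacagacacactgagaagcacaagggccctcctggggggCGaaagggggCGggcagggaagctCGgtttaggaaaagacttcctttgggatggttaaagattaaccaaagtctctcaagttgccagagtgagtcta
The window of Hoxa5 held 28 CpG and the shorter window of Hoxa6 22, against 3 for Hoxa9 and 7 for the upstream start of Hoxa10. The window of a second start of Hoxa10, at chr6:52234940-52235189, held 20 CpG, so the split does not follow the genes throughout. Of the other members, Hoxa3 held 18, Hoxa11 and Meis1 13 each, Hoxa7 7, and Mecom 14 and 8 at its 2 starts, some of these windows lying partly or wholly in annotated exons. The median over 32851 promoter windows of 250 bases was 6. Letters that MEIS, PBX with HOX, and CDX or posterior HOX proteins are known to bind (TGACAG, TGATNNAT and TTTATNG, both strands, no motif containing another) occurred in 15.9%, 7.68% and 9.81% of all promoter windows and in none of the Hoxa5, Hoxa6, Hoxa9 or Hoxa10 windows. That says only that these letters are not in these windows. Among the other members, TGACAG occurred in the window of Hoxa3, TGATNNAT in that of the upstream start of Mecom, and TGACAG and TTTATNG in that of its downstream start.

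The differences changed along the cluster between Hoxa6 and Hoxa7, with the low gene Hoxa11 as an exception. This split was seen in the values and is given as a description, with no test. The 5 genes from Hoxa2 to Hoxa6 had log2 fold changes from 1.26 to 2.57, whereas Hoxa7, Hoxa9 and Hoxa10, whose 3' ends lie 53.2 to 68.8 kb from that of Hoxa2, had values of 0.17, -0.06 and -0.46 and Hoxa11 one of 1.57. The median log2 fold change was 1.58 over the 5 genes from Hoxa2 to Hoxa6 and 0.01 over all genes tested. The summed FPKM of Hoxa2 to Hoxa6 was 64.5 and 71.3 in WT against 127 and 316 in CD274-null. The sum of Hoxa7 to Hoxa13 was 128 and 141 in WT against 129 and 123 in CD274-null. Hoxa2 to Hoxa6 thereby made up 33.5% of the summed FPKM from Hoxa2 to Hoxa13 in both WT libraries, and in the CD274-null libraries 49.7% (replicate 1) and 72.04% (replicate 2). The ratio of Hoxa5 to Hoxa9 FPKM was 0.390 and 0.409 in WT against 0.809 and 1.95 in CD274-null, so that Hoxa5 exceeded Hoxa9 in CD274-null replicate 2.

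**Figure D2:**
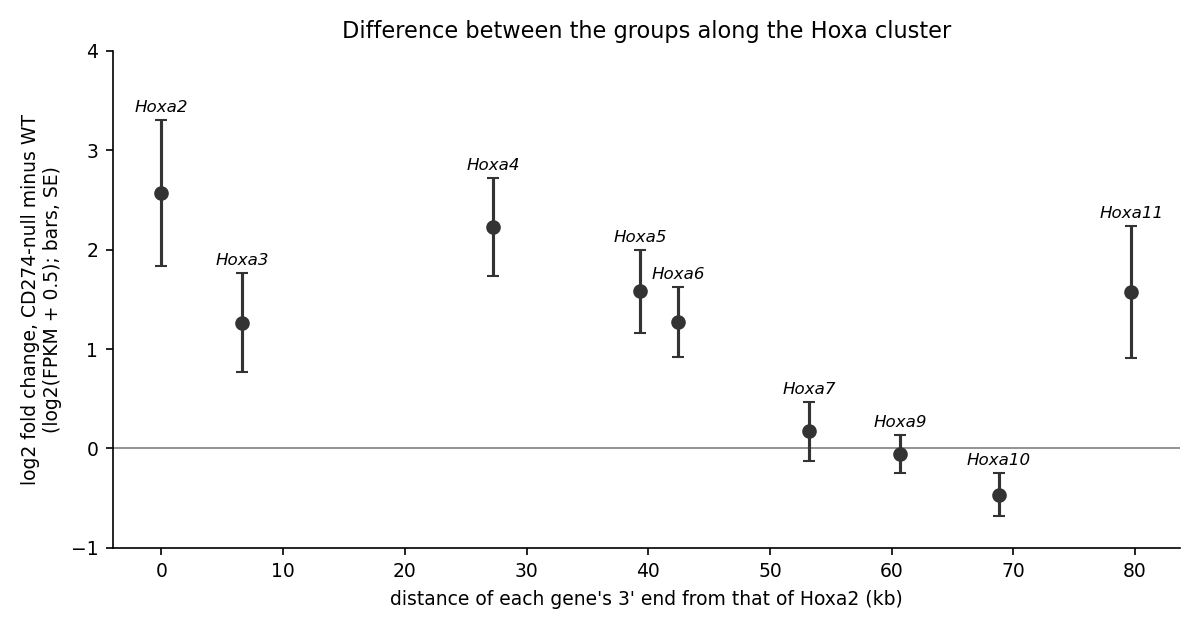
Log2 fold change, CD274-null minus WT, of 9 tested Hoxa genes (vertical, bars are standard errors from limma) against the distance of each gene's 3' end from that of Hoxa2 in kb (horizontal). The 5 genes from Hoxa2 to Hoxa6 lie between 1.26 and 2.57, Hoxa7, Hoxa9 and Hoxa10 near or below 0, and Hoxa11 at 1.57 on few reads.

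**Figure D3:**
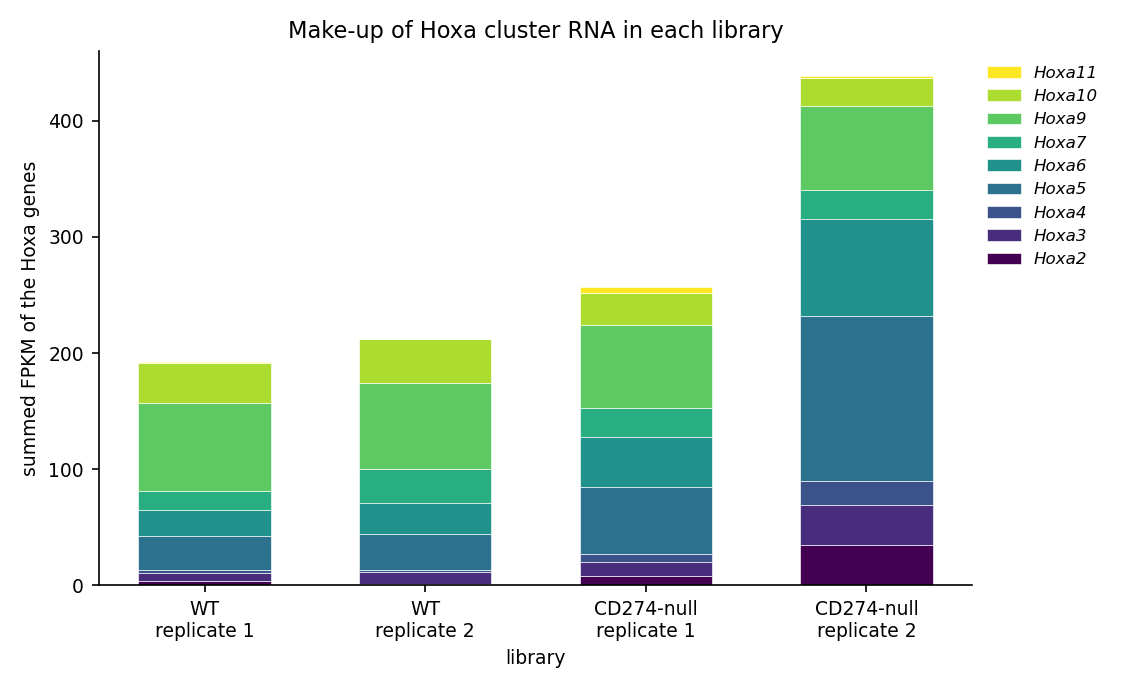
Summed FPKM of the Hoxa genes (vertical) in each library (horizontal), stacked by gene from Hoxa2 at the bottom to Hoxa11 at the top. The Hoxa9 segment stays between 71.3 and 75.8 FPKM while the segments below Hoxa7 add up to 64.5 and 71.3 in WT and to 127 and 316 in CD274-null.

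On the other side of the cluster Hoxa10 was lower and Hoxa7 was mixed. Hoxa10 (NCBI gene 15395, chr6:52231197-52240854), which with Hoxa9 acts in myeloid progenitors, had an FPKM of 34.4 and 38.1 in WT and of 28.1 and 24.2 in CD274-null. Both CD274-null values lay below the WT values, and the ratio of Hoxa10 to Hoxa9 was 0.454 and 0.513 in WT against 0.394 and 0.332 in CD274-null. The log2 fold change of Hoxa10 was -0.46 with a standard error of 0.21 (unadjusted p = 0.0708, adjusted p = 0.403, limma), and it did not pass the test. Hoxa7 (NCBI gene 15404, chr6:52215623-52218573), also a target of MLL fusion proteins, had an FPKM of 16.7 and 28.5 in WT and of 25.1 and 24.3 in CD274-null. Both CD274-null values fell between the WT values. Its log2 fold change was 0.17 with a standard error of 0.30 (adjusted p = 0.834, limma) and turned to -0.21 without WT replicate 1. The WT replicates themselves differed 1.70 times in Hoxa7 (95% exact binomial interval 1.49 to 1.95). Of the annotated Hoxa7 exon bases, 20.4% are shared with Hoxaas3 on the opposite strand. Hoxa11 (NCBI gene 15396, chr6:52242105-52245810), which acts in limb, kidney and uterus and is not typical of blood, had an FPKM of 0.847 and 0.219 in WT and of 4.79 and 1.12 in CD274-null, from 22, 5, 95 and 25 reads. The highest value here was in CD274-null replicate 1, unlike in Hoxa3, Hoxa5 and Hoxa6. Its log2 fold change was 1.57 with a standard error of 0.66 (unadjusted p = 0.0540, adjusted p = 0.370, limma), and it ran from 0.72 without CD274-null replicate 1 to 2.43 without CD274-null replicate 2, being 2.03 without WT replicate 1. The exons of Hoxa11 share 34.98% of their bases with the antisense transcript Hoxa11os, whose FPKM of 0.376 and 0.107 in WT and of 2.40 and 0.710 in CD274-null had the same order, and without strand the reads on the shared bases cannot be assigned to either gene.

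The cluster also holds Mir196b between Hoxa9 and Hoxa10, a miRNA gene whose product is known to target Hox transcripts. Its row, which is the 85-base precursor at chr6:52230081-52230165, had only 8 and 9 reads in WT against 3 and 4 in CD274-null. All 85 bases also lie within an annotated GENCODE exon of Hoxa9 on the same strand, so these reads could belong to a Hoxa9 transcript, and libraries of this kind do not measure the mature miRNA. Mir196b and Mira were chosen after their values were seen. The mature sequence from RefSeq (chr6:52230129-52230150, minus strand) is shown with its seed, bases 2 to 8, in capitals, and the 3' UTR sites of the Hoxa genes above with the bases that match the seed in capitals. Sites were searched in the longest protein-coding GENCODE transcript of each gene.
miR-196b-5p: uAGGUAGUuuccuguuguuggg
Hoxa5 site: gatatttttattcaaACTACCTa
Hoxa7 site 1: aggcacagccaaaatACTACCTa
Hoxa7 site 2: gagaggcactcccaaACTACCTa
Hoxa7 site 3: caaaccatgatcaatACTACCTa
Hoxa7 site 4: tactactagccctaaACTACCTa
Hoxa9 site: gcaaaaggaaagaaaACTACCTt
The Hoxa5 site is at chr6:52202118-52202140, the Hoxa9 site at chr6:52223900-52223922, and the 4 Hoxa7 sites are at chr6:52215400-52215422, chr6:52215363-52215385, chr6:52215231-52215253 and chr6:52215210-52215232. The letters ACTACCT occurred at least 1 time in 13.77% of 6993 protein-coding transcripts of 1800 to 3300 bases and at least 4 times in 2 of them, Hoxa7 included. Hoxa6 held 1 match in its coding part and Pbx3 1 in its 3' UTR, whereas Hoxa3, Hoxa10, Hoxa11, Meis1 and Mecom held 0. The part of miR-196b in the Hoxa differences was not tested. The 4 Hoxa7 sites lie in the GENCODE 3' UTR and outside the shorter RefSeq interval of Hoxa7 given above, and which of them the deposited Hoxa7 value covers is not given in the sources used here. The last 2 Hoxa7 sites lie within the RefSeq interval of the noncoding gene Mira (chr6:52214491-52215288). Mira had an FPKM of 33.6 and 55.5 in WT and of 71.1 and 70.6 in CD274-null and a log2 difference of 0.71 (SE 0.28, adjusted p = 0.350, limma).

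Pbx3 (NCBI gene 18516, chr2:34171457-34372045), the TALE partner of HOXA9 in MLL-rearranged leukemia, varied more within the WT group than between the groups. Its FPKM was 7.15 and 33.6 in WT against 13.6 and 21.5 in CD274-null. The CD274-null values both fell between the WT values, which are the lowest and the highest of the 4. From 198 and 818 reads, WT replicate 2 held 4.69 times the Pbx3 level of WT replicate 1 (95% exact binomial interval 4.01 to 5.51). The log2 fold change was 0.13 with a standard error of 0.67 (adjusted p = 0.95, limma), and it was -0.95 without WT replicate 1, 1.20 without WT replicate 2 and -0.19 without CD274-null replicate 2. The summed FPKM of the 9 neutrophil markers was also at opposite ends in the WT libraries. It was 42057 in WT replicate 1 and 8400 in WT replicate 2, against 17585 and 30558 in CD274-null. Not every marker followed the sum, as Ltf, Ly6g and Camp were highest in CD274-null replicate 2. The progenitor marker Cd34 read 4.32 and 31.7 FPKM in WT against 14.0 and 28.9 in CD274-null, the library order of Pbx3. Mpo, at 444 and 403 FPKM in WT against 1427 and 925 in CD274-null, did not have that order. The part of these cells in the Pbx3 difference was not tested.

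Mecom (NCBI gene 14013, chr3:29951296-30509759) was low throughout, with most of its reads in CD274-null replicate 2. It had 0 and 16 reads in WT against 23 and 139 in CD274-null, or an FPKM of 0 and 0.286 against 0.473 and 2.54. A count of 0 in WT replicate 1 allows up to 0.0471 FPKM (3 reads, counting error only). The groups did not overlap, and CD274-null replicate 2 held 5.37 times the level of CD274-null replicate 1 (95% exact binomial interval 3.44 to 8.75). Its log2 fold change was 1.46 with a standard error of 0.65 (unadjusted p = 0.0660, adjusted p = 0.393, limma). For so few reads the value depends on the scale, and it was 1.01 with a pseudocount of 1, 2.65 with 0.1 and 4.64 with voom on the recovered reads. It was 2.28 without CD274-null replicate 1. Without CD274-null replicate 2 the mean of Mecom fell under the FPKM minimum of 0.5 and it was not tested. The WT mean of 0.143 FPKM also lay under that minimum. Mecom thus entered the test only through its CD274-null values, and its test is no support for a difference. Of the other genes of its PR domain family, 7 of 9 were tested and 0 were candidates in limma, with 2 at an unadjusted p under 0.05. The shares over all genes tested were 3.63% and 13.7%. Of the 7 genes, 3 had log2 fold changes above 0 and 4 below. Prdm2, a histone methyltransferase, had an FPKM of 10.5 and 10.6 in WT and of 13.2 and 21.2 in CD274-null (0.64 on the log2 scale, adjusted p = 0.402, limma), and Prdm4 12.1 and 13.9 against 11.9 and 9.19 (-0.29, adjusted p = 0.641, limma).

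By mean FPKM the order in WT was Hoxa9, Hoxa10, Meis1, Hoxa5, Hoxa6, Hoxa7, Pbx3, Hoxa3, Hoxa11 and Mecom. In that order the neighbours Hoxa10 and Meis1, Hoxa6 and Hoxa7, Hoxa7 and Pbx3, Pbx3 and Hoxa3, and Hoxa11 and Mecom overlapped in their replicate values. In CD274-null the order was Hoxa5, Hoxa9, Hoxa6, Meis1, Hoxa10, Hoxa7, Hoxa3, Pbx3, Hoxa11 and Mecom, and all neighbours overlapped except Meis1 and Hoxa10, and Pbx3 and Hoxa11. The group values of 8 of the 10 genes did not overlap, 6 higher in CD274-null (Hoxa3, Hoxa5, Hoxa6, Hoxa11, Meis1 and Mecom) and 2 lower (Hoxa9 and Hoxa10), while Hoxa7 and Pbx3 overlapped. Of these genes Mecom was among those tested only through its CD274-null values. Of all genes tested 47.3% did not overlap, 25.6% higher and 21.8% lower. With 2 libraries against 2, an exact permutation test of a single gene cannot give a two-sided p below 0.333. The median log2 fold change of the 10 genes was 0.73, against 0.01 over all genes tested, and it was 0.18 when genes whose mean FPKM lay under 5 were dropped, 0.31 without CD274-null replicate 2 and 1.16 without WT replicate 2.

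**Figure D4:**
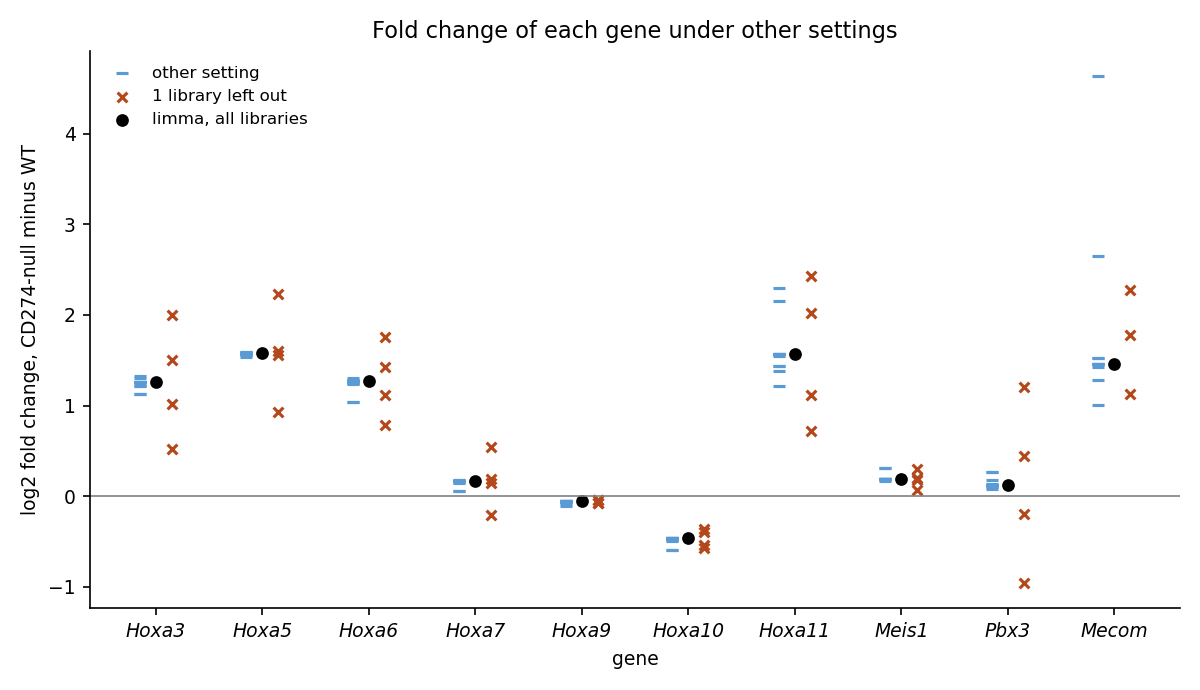
Log2 fold change, CD274-null minus WT (vertical), of each of the 10 genes (horizontal) in the limma comparison of all libraries (black), under other settings of the processing (blue) and with 1 library left out (red crosses). The crosses of Hoxa5 run from 0.93 to 2.23 and stay above 0, whereas those of Pbx3 run from -0.95 to 1.20.

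The other Hox clusters were nearly silent. Of the Hoxb genes 2 of 10 were tested, and of the 9 Hoxc and 9 Hoxd genes none reached a mean FPKM of 0.5. Hoxb4, a gene of stem and progenitor cells, had an FPKM of 1.62 and 1.53 in WT and of 1.72 and 1.29 in CD274-null. Hoxb13, known from the prostate, had 0.922 and 1.05 in WT against 2.15 and 0.153 in CD274-null. Neither passed the test in limma (adjusted p = 0.960 and 0.934), and in both genes the groups overlapped.

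Among the other TALE proteins and their partners 6 of 10 were tested, and 1 was a candidate, against 3.63% of all genes tested. Pbxip1, which binds PBX proteins and keeps them from DNA, had an FPKM of 16.2 and 16.4 in WT and of 33.99 and 36.6 in CD274-null. Its replicates lay close together and the groups far apart, and unlike in Hoxa5 the CD274-null libraries were nearly equal. For Pbxip1 the log2 fold change was 1.09 with a standard error of 0.21 (unadjusted p = 0.00176, adjusted p = 0.247, limma), and it kept the call in all 12 other settings but not without either CD274-null library. Pbx2, the PBX gene with the highest mean FPKM over the 4 libraries, had an FPKM of 19.3 and 32.6 in WT and of 37.2 and 42.8 in CD274-null (0.66 on the log2 scale, SE 0.30, adjusted p = 0.395, limma). The difference of Pbx2 was 0.28 without WT replicate 1 and 1.03, past the thresholds, without WT replicate 2.

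Of 17 listed regulators of the Hoxa cluster in the table, among them Kmt2a, Men1, Dot1l and the Polycomb proteins, 15 were tested and 0 were candidates, and at an unadjusted p under 0.05 the count in limma was also 0, as was the count of candidates with voom. Over all genes tested, 3.63% were candidates and 13.7% had an unadjusted p under 0.05 in limma. The median log2 fold change of the regulators was 0.08. Suz12 and Ezh2, subunits of the Polycomb complex that represses Hox genes, had the highest mean FPKM of the list. Suz12 had an FPKM of 82.0 and 63.8 in WT and of 58.5 and 44.3 in CD274-null (-0.50 on the log2 scale, SE 0.25, adjusted p = 0.419, limma), with -0.30 to -0.70 when a CD274-null library was left out. Ezh2 had 58.0 and 46.3 in WT against 58.8 and 66.3 in CD274-null (0.27, standard error 0.22, adjusted p = 0.614, limma). The caudal genes Cdx2 and Cdx4, which drive Hox genes in the embryo, were at or near 0.

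Genes linked to HOXA9 and MEIS1 in leukemia had no common direction, with 17 of 19 tested, 0 candidates higher and 1 lower in limma, 2 at an unadjusted p under 0.05, and a median log2 fold change of 0.02. Over all genes tested, 2.39% were candidates higher and 1.24% lower, and 13.7% had an unadjusted p under 0.05 in limma. Cdk6, the cyclin D kinase of the G1 phase, had an FPKM of 102 and 112 in WT and of 47.5 and 39.0 in CD274-null. Its log2 fold change was -1.31 with a standard error of 0.21 (unadjusted p = 0.000729, adjusted p = 0.172, limma), and it lost the call without CD274-null replicate 2 and without moderation. The genes of the list with the highest mean FPKM over the 4 libraries, though not in each library, the transcription factor Myb and the adaptor Lmo2, had log2 fold changes of 0.57 (adjusted p = 0.412) and 0.10 (adjusted p = 0.919) in limma. Myb read 192 and 277 FPKM in WT against 318 and 368 FPKM in CD274-null, and its log2 fold change was 0.30 without WT replicate 1 and 0.83 without WT replicate 2. Lmo2 read 116 and 221 FPKM in WT against 160 and 183 FPKM in CD274-null.

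**Figure D5:**
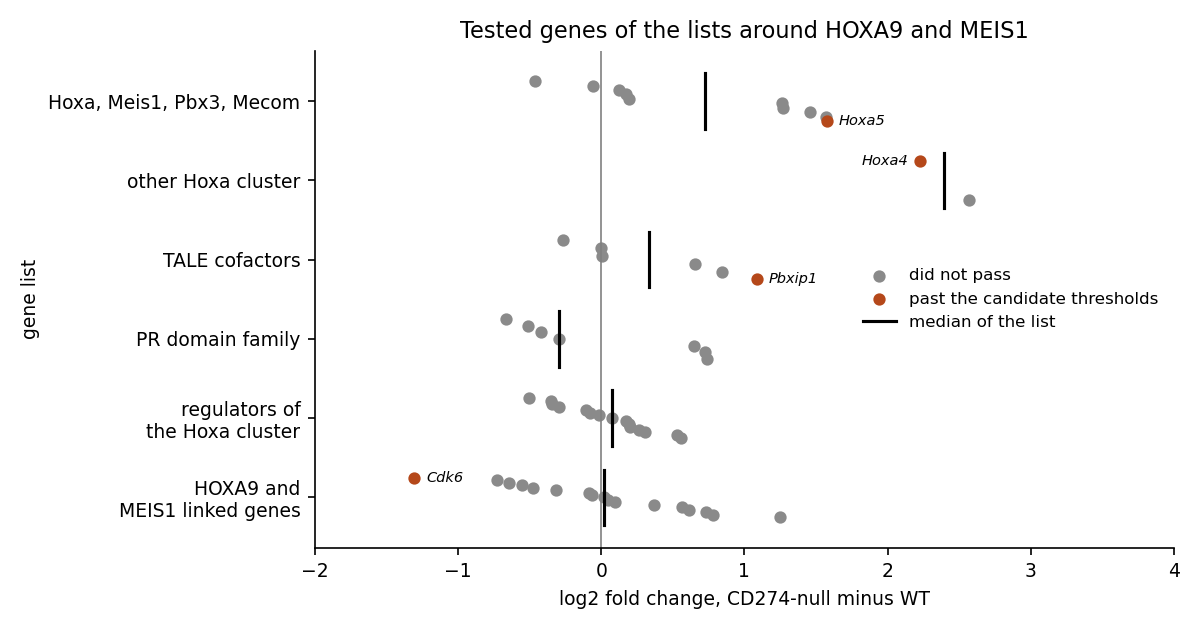
Log2 fold change, CD274-null minus WT (horizontal), of the tested genes of each list (vertical), with candidates in red and named, and the median of a list as a black bar. Hoxa2 and Hoxa4 lie at 2.57 and 2.23, while the regulators of the cluster lie around 0 with a median of 0.08.

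Markers of other cells were higher in the same libraries in part. The summed FPKM of 249 immunoglobulin genes was 45.7 and 50.3 in WT against 953 and 849 in CD274-null, and of the 6 plasma cell markers it was 0.723 and 1.04 against 14.3 and 12.7. Jchain, which joins immunoglobulin chains, held 0.370 and 0.514 FPKM of the WT sums and 12.3 and 10.5 FPKM of the CD274-null sums. It was a candidate and the 1 gene of the lists used here with an adjusted p under 0.05 (log2 fold change 3.65, adjusted p = 0.0369, limma). The 7 stromal and endothelial markers summed to 13.3 and 19.4 FPKM in WT and to 24.96 and 51.8 in CD274-null, most of it Pecam1. The endothelial genes Cdh5 and Kdr read at most 0.0284 and 0.0207 FPKM in any library. The stromal gene Col1a1 read 0.973 and 0.793 FPKM in WT against 3.65 and 1.88 in CD274-null. The 8 megakaryocyte markers summed to 26.9 and 22.5 in WT and to 23.98 and 58.0 in CD274-null, with Pf4, Gp6 and Ppbp at 0 in all 4 libraries. The 8 stem cell markers summed to 9.06 and 6.33 in WT and to 12.02 and 9.53 in CD274-null, most of it Mllt3 (6.63 and 4.19 against 9.24 and 6.93), the mouse gene of the AF9 part of the fusion. The sort used Mac-1 and c-Kit alone, and of 6 listed genes of such myeloid progenitors (Itgam, Kit, Cd34, Fcgr3, Fcgr2b and Mpo) 1 was a candidate, the granule enzyme gene Mpo, at 444 and 403 FPKM in WT against 1427 and 925 in CD274-null. The 7 erythroid markers in the table summed to 54.9 FPKM in WT replicate 2 and to 0.437 to 4.56 in the others. The 7 B cell markers used summed to 13.0 to 39.3 FPKM, nearly all of it Cd79b, and the 8 T cell markers to 1.39 to 4.86 FPKM. The 8 macrophage markers summed to 167 and 184 FPKM in WT against 123 and 150 in CD274-null. Of these the adhesion molecule gene Vcam1 was a candidate, at 117 and 92.3 FPKM in WT against 53.7 and 59.8 in CD274-null (-0.87 on the log2 scale, unadjusted p = 0.00704, adjusted p = 0.272, limma), while 4 of the 6 tested macrophage markers had log2 fold changes above 0, from 0.10 (Adgre1) to 0.46 (C1qa), and did not pass the test. The part of these cells in the Hoxa differences was not tested.

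The genes whose pattern over the 4 libraries was most like that of Hoxa9, by Euclidean distance between centred log2(FPKM + 0.5) values, were Mark2 (0.0227), Usp15 (0.0236) and Clasp1 (0.0297). For Meis1 they were Acad9 (0.0181), Taf1a (0.0226) and Alkbh6 (0.0231).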

How the data were processed

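RNA of LICs was sequenced as TruSeq v2 libraries on a HiSeq2500. Per the submitters' processing notes, CASAVA 1.8.2 and TopHat2 2.0.12 were used with GRCm38, and the authors deposited FPKM values, 1 per gene and library, from a program not given in the sources used here. FPKM already corrects for depth and gene length. Libraries were grouped by their labels. Symbols came from RefSeq GRCm38.p6 (25275 of 27179 genes). Of the genes above 0 in at least 2 libraries, 17083 (100%) gave whole reads, and 95.6% of these an implied length whole within 0.01 bases. These reads are the smallest whole numbers that fit the values. On simulated reads 93.5% of genes were recovered in full, so the reads of some genes may be too low by a whole factor. The read totals behind FPKM came from the annotated lengths of small RNA genes, where 197 of 209 gave the same number. In Python 3.11.15, intervals used scipy 1.17.1.

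On log2(FPKM + 0.5), for genes whose mean FPKM reached 0.5, groups were compared by limma 3.58.1 (lmFit, then eBayes allowing a trend) under R 4.3.3, with no covariate and Benjamini-Hochberg adjustment over all genes. On simulated data for 13050 genes, 98.4% of 193 changed and 0.980% of unchanged genes were called. Whether these shares hold for genes whose replicates differ as much as those of Hoxa5 or Pbx3 was not tested. Alternatives were pseudocounts of 1 and 0.1, no filter, a mean of at least 5, quantile and median scaling, no trend, no moderation, a replicate block, GC correction (loess, span 0.3), both together and each library left out, with voom on recovered reads added after seeing the data. The members and lists were chosen with earlier results of these data known. Named were each member, candidates and the 2 highest genes of each list, the other Hox genes with a mean of at least 0.5 and the 3 genes nearest to Hoxa9 and to Meis1. Some genes that this rule or these lists name are not reported here and were left out of list counts and sums.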

Additional observations from a re-analysis of the deposited data

How the results depend on the processing

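Under the 12 settings that keep all libraries, the 118 fold changes of the 10 genes kept their direction. The filter, the trend, moderation and the replicate block leave a fold change as it is, so part of these values could not turn. With a library left out 3 of 39 turned, Hoxa7 to -0.21 and Pbx3 to -0.95 without WT replicate 1, and Pbx3 to -0.19 without CD274-null replicate 2, within ranges of -0.21 to 0.55 for Hoxa7 and -0.95 to 1.20 for Pbx3. The number of the 10 genes that were candidates, 1 in the main comparison, was 0 without a filter, with quantile normalization, equal medians, no trend, no moderation or GC correction, 2 with a mean FPKM of at least 5, and 0 to 3 with a library left out. It was 3 with the replicate block and 2 with the block and GC correction. The labels share replicate numbers, but same-numbered libraries deviated together with a correlation of only -0.02, so the numbers are not shown to pair them. The adjusted p count of the 10 genes stayed at 0 in these settings. Their median log2 fold change was 0.18 with a mean FPKM of at least 5, where the low genes drop out, and ran from 0.31 to 1.16 with a library left out.

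Over all genes, 480 candidates became 170 without moderation, 526 with the block, 322 with GC correction, 283 with both, and 149 to 645 with a library left out. The 10 genes with an adjusted p under 0.05 became 1 without a filter, 4 with a mean of at least 5, 5 with quantile normalization and with equal medians, 6 without trend, 21 with the replicate block, 0 without moderation, with GC correction, with both, and with voom on recovered reads, and 0 to 43 with a library left out. Hox candidates outside the 10, 1 in the main comparison, were 0 without a filter and without moderation, 2 with the replicate block, and 0 to 2 with a library left out. TALE candidates ran from 0 to 3 with a library left out. HOXA9 and MEIS1 linked candidates, 1 in the main comparison, were 0 without moderation, 2 with the replicate block and with the block and GC correction, and 0 to 3 with a library left out. Lmo2 turned to -0.044 with GC correction, with or without the block, and ran from -0.37 (without WT replicate 1) to 0.57 with a library left out. Without CD274-null replicate 2 Hoxb4 turned to 0.10 and Hoxb13 to 0.84, within ranges of -0.21 to 0.10 and -1.18 to 0.84. Where no value or construction is given, the cause was not tested. With 2 libraries a group, the spread of a gene is largely borrowed from other genes, and genes with few reads, such as Hoxa11 and Mecom, have wide intervals.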
